A study of Arabidopsis thaliana with 24 samples.

Results

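Root tips of nac103-11 seedlings were compared with root tips of wild-type (WT) seedlings on control medium by RNA sequencing, across all genes. The comparison takes the 3 nac103-11 and the 3 WT libraries labelled control, which are 6 of the 24 libraries of the series. nac103-11 is an Arabidopsis thaliana line mutant in NAC103, and the WT is the accession Columbia, given in the labels as Col. Both were grown for about 5 days on 1/2 Murashige and Skoog medium with sucrose, and root tips of about 0.5 cm were collected, although the tissue tag reads roots. The series also holds nac103-11 and WT on spectinomycin at 10 mg/L, an antibiotic that blocks translation in plastids, used here as a second readout of the same genotypes. Its remaining groups are the mutant gun1-101 and the overexpressor NAC103-OX, which carries 35S:NAC103-GFP under a viral promoter active in most plant cells. The labels describe neither the lesion of nac103-11 nor a second mutant line, so other differences between this line and WT cannot be told apart from the allele. They do not say whether control seedlings were also moved to fresh plates. The batch tag repeats each group's genotype and treatment, so batch and group cannot be told apart.

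NAC103 encodes a transcription factor of the plant NAC family. In Arabidopsis it is known as a downstream relay of bZIP60 in the unfolded protein response of the endoplasmic reticulum (ER), in which a load of unfolded proteins induces chaperones, and as a target of SOG1, the regulator of the plant DNA damage response. GUN1, the other gene named in the study's title, is a plastid protein that carries information on plastid state to the nucleus. The root tip holds the stem cell niche, the dividing and elongating cells and the root cap, and its plastids are largely non-photosynthetic.

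NAC103 itself was at the edge of detection on control medium and did not separate the genotypes there. It had 0.533, 0.541 and 0.777 CPM (counts scaled to a common, normalised library size) in nac103-11 and 0.733, 0.917 and 0.641 CPM in WT, which are 27 and 37 counts in total over the 3 libraries. The ranges overlap, and the log2 fold change of −0.31 (SE 0.327) gave an adjusted p of 0.515 in edgeR's quasi-likelihood test with Benjamini-Hochberg adjustment, so at this depth no difference was detectable. On spectinomycin the genotypes did separate, with 0.129, 0 and 0.113 CPM in nac103-11 and 0.568, 0.515 and 0.591 CPM in WT, a log2 fold change of −2.72 (SE 0.533, adjusted p = 9.41e-05). The difference between media was itself called, at −2.41 on the log2 scale (adjusted p = 0.0113). On control medium NAC103-OX exceeded WT by 4.48 on the log2 scale, in a comparison with the same WT libraries. The control libraries therefore carry no check of their nac103-11 label from the mutated gene, and where reads of a mutant transcript would fall is not given.

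The libraries were similar in size, with 14115909 to 16661719 expected counts in nac103-11 and 13837483 to 17059084 in WT, and 19567 of the 24497 genes in the table were tested. One WT library, replicate 2, stood apart from the others. The chi-square per degree of freedom between libraries over 18615 to 18977 genes was 8.9 and 9.02 for pairs with this library, against 1.81 for the other WT pair and 2.17 to 2.4 for the nac103-11 pairs. Photosynthesis genes were high and root hair genes were low in that library, and results that rest on it are given below with and without it. The labels call the libraries biological replicates without naming separate cultures, so p-values measure the spread between these samples. The normalisation factors were 0.923 to 0.931 in nac103-11 and 1.01 to 1.02 in WT, so the direction of small changes depends on the scaling.

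Of the 19567 genes tested, 8481 (43.3%) were called at an adjusted p under 0.05. In nac103-11, 4541 (23.2%) rose and 3940 (20.14%) fell. Most of these differences were small: the median absolute log2 fold change of the called genes was 0.389, and 886 genes (4.53%) were called at 2-fold or more, with 505 higher (2.58%) and 381 lower (1.95%). The 3 and 3 libraries did not overlap in 9452 genes (48.3%), in 25.3% of genes with nac103-11 higher and in 23.0% with nac103-11 lower. Counts of called genes in the lists below are to be read against 23.2% higher and 20.14% lower over all genes. With raw library sizes in place of TMM factors, 2658 genes were higher and 7105 lower, so 27.2% of the calls were higher against 53.5% with TMM, and the median over all genes moved from −0.0042 to −0.14 on the log2 scale. Of the 8481 calls, 6598 remained with the same sign under raw sizes and 124 reversed, while 876 of the 886 at 2-fold or more remained. Changes in transcript level here are per unit of total RNA in a bulk sample, and fewer cells of a type cannot be told apart from less RNA per cell.

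**Figure D1:**
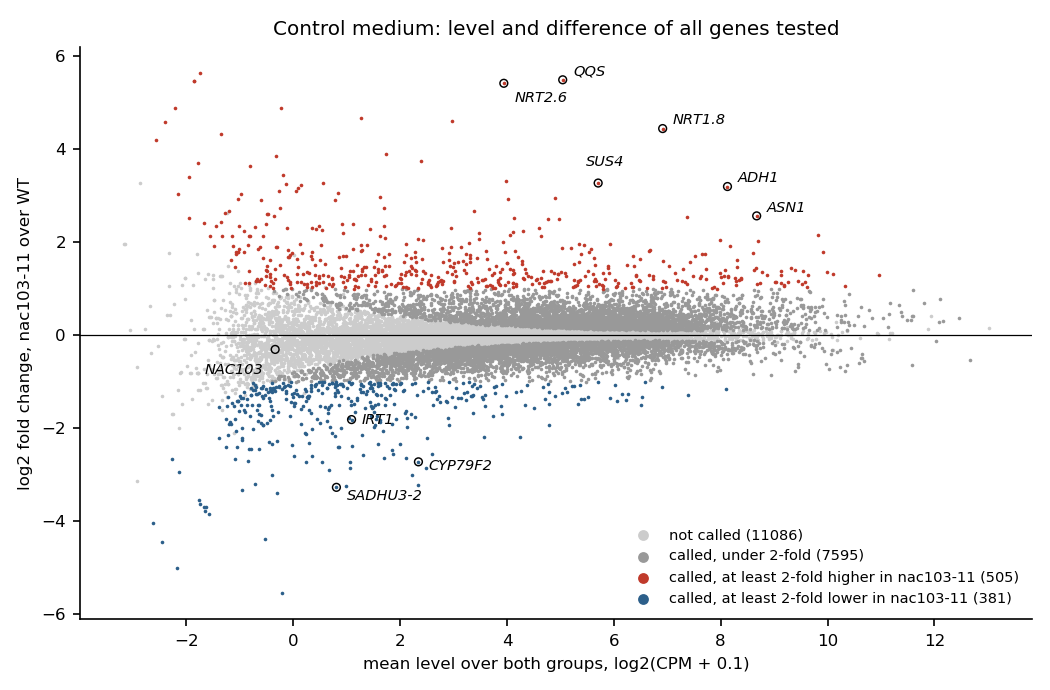
Log2 fold change of nac103-11 over WT on control medium (vertical axis) against the mean level of both groups as log2 of CPM plus 0.1 (horizontal axis), 1 point per gene tested. The 505 red points are genes called at least 2-fold higher in nac103-11 and the 381 blue points at least 2-fold lower, most of the blue ones at low levels, and NAC103 lies near 0 at the left.

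The gene with the largest rise among the genes named by rule was QQS, an orphan gene found only in Arabidopsis thaliana that modulates starch content. QQS had 64.5, 65.5 and 62.9 CPM in nac103-11 and 1.47, 1.15 and 1.71 CPM in WT, a log2 fold change of 5.49 (SE 0.109, adjusted p = 6.49e-35). The level was nearly the same on spectinomycin, where it had 63.2, 65.2 and 59.1 CPM in nac103-11 and 1.52, 1.37 and 1.5 CPM in WT. In the control libraries of the other genotypes, QQS averaged 1.18 CPM in gun1-101 and 0.644 CPM in NAC103-OX, so among the 4 genotypes only nac103-11 libraries were high. QQS is known as a locus whose DNA methylation and expression vary between Arabidopsis lines. The largest fall was that of SADHU3-2, a member of the Sadhu retroposons, which also vary in methylation between lines. SADHU3-2 had 0.457, 0.135 and 0.324 CPM in nac103-11 and 3.05, 2.58 and 3.35 CPM in WT (log2 fold change −3.28, SE 0.318, adjusted p = 1.61e-11), and its fold change on spectinomycin was −3.74. It averaged 3.71 CPM in gun1-101 and 1.54 CPM in NAC103-OX on control medium. Of 2 other loci of this kind, the DNA demethylase gene DML1 rose by 0.49 on the log2 scale, and FWA, silent by methylation in Columbia, had 1 read or none in each of the 6 libraries.

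**Figure D2:**
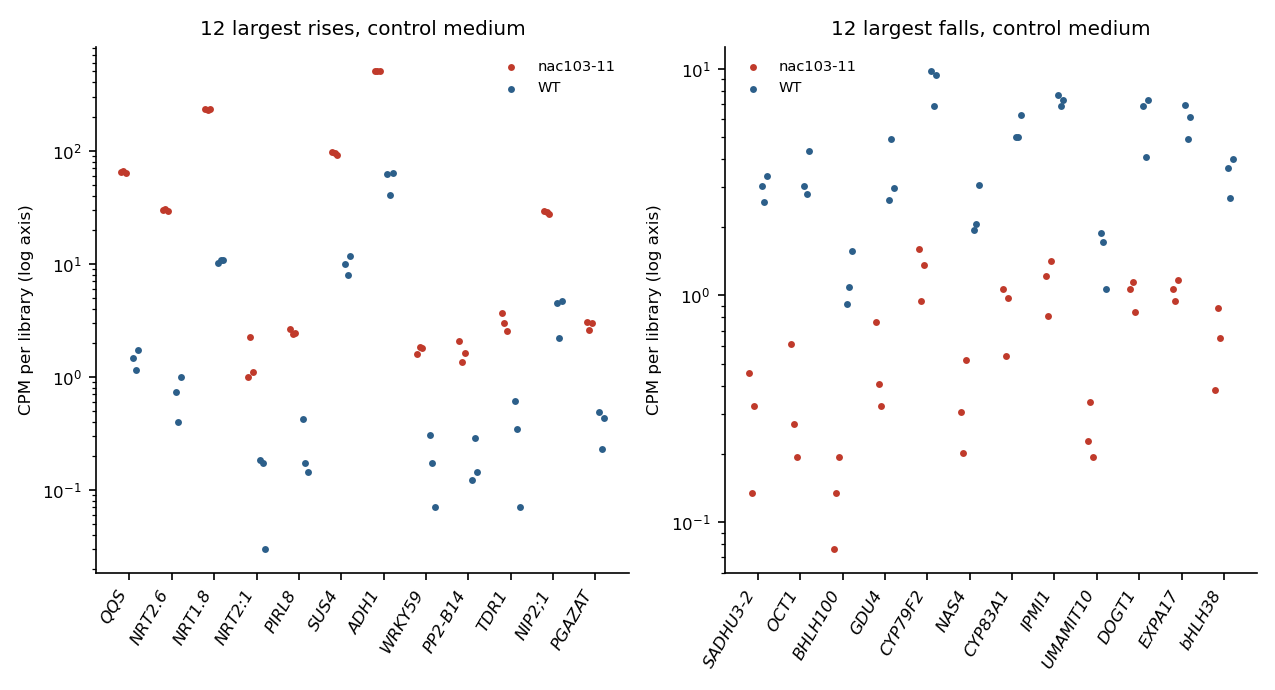
CPM per library on a log axis, with nac103-11 in red left of WT in blue, for 24 called genes that carry a symbol: the 12 with the largest rises and the 12 with the largest falls, of those averaging 1 CPM or more in either genotype and with libraries that do not overlap. The NRT2:1 point of WT replicate 3, which is 0, is drawn at the bottom of the axis, and in each of the 24 genes all 3 nac103-11 points lie on 1 side of the 3 WT points.

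Among the 12 largest rises, 3 were nitrate transporters. NRT1.8, which unloads nitrate from the xylem, had 231, 229 and 231 CPM in nac103-11 and 10.1, 10.8 and 10.8 CPM in WT, a log2 fold change of 4.44 (SE 0.0737, adjusted p = 1.24e-37). NRT2.6, a member of the high-affinity transporter family, had 29.9, 30.3 and 29.3 CPM in nac103-11 and 0.733, 0.401 and 0.998 CPM in WT, a log2 fold change of 5.42. NRT2:1, the main high-affinity nitrate importer of roots, was low throughout, with 0.99, 2.23 and 1.1 CPM in nac103-11 and 0.183, 0.172 and 0 CPM in WT (log2 fold change 3.45, SE 0.488). Neither NRT1.8 nor NRT2.6 kept its size on spectinomycin. There NRT1.8 had 18.3, 18.9 and 21.2 CPM in nac103-11 and 15, 12.5 and 14.7 CPM in WT, and NRT2.6 was lower in nac103-11, with 2.38, 3.16 and 3.32 CPM against 4.1, 5.21 and 4.35 CPM in WT. Both genes were also above WT in gun1-101 on control medium, where the log2 fold change over WT was 2.92 for NRT1.8 and 4.71 for NRT2.6, and in NAC103-OX, where it was 0.58 and 3.18. Both comparisons share their WT libraries with that of nac103-11.

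The list of 16 nitrate genes tested moved in both directions, with 6 higher, 8 lower and a median log2 fold change of −0.12. Among all genes 23.2% were higher and 20.14% lower. The dual-affinity transporter and nitrate sensor NRT1.1 fell, with 26.2, 24.7 and 28.4 CPM in nac103-11 and 56.3, 52.2 and 58.4 CPM in WT (log2 fold change −1.07). The nitrate reductase gene NIA1 fell by 0.85 on the log2 scale and the nitrite reductase gene NIR1 by 0.32. The nitrate-induced repressors LBD37, LBD38 and LBD39 and the nitrate-responsive regulator HRS1 fell by 0.46, 0.15, 0.35 and 0.67. Genes on this list that rose were, beside NRT2:1 and NRT2.6, the transporter partner WR3 (0.83), the regulator NLP7 (0.14), the kinase gene CIPK23 (0.15) and ASN1 (2.56). Of the 16 genes, 13 were called in the difference between media, against 11.8% of all genes tested.

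ASN1, the asparagine synthetase gene induced by darkness and sugar depletion, had 701, 709 and 686 CPM in nac103-11 and 116, 113 and 126 CPM in WT, a log2 fold change of 2.56 (SE 0.0485, adjusted p = 1.34e-35). On control medium ASN1 was also above the same WT libraries in the gun1 mutant, with a log2 fold change of 2.1. In NAC103-OX it was 0.0442. Genes that mark carbon starvation rose with ASN1 in nac103-11. Of 27 such genes tested, 25 rose and none fell, 14 of them at 2-fold or more, with a median log2 fold change of 1.13. Summed over the list the level was 24900 to 25300 CPM in nac103-11 and 13000 to 13900 CPM in WT. This list and the low-oxygen list below were written after the leading genes of these libraries had been seen, so their counts describe the libraries and are no independent evidence. The members fall into 3 kinds: dark-inducible genes, genes of branched-chain amino acid and lysine breakdown, and sugar sensing or transport genes.

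Among the dark-inducible genes, SEN1 (AT4G35770), a marker of senescence and darkness, had 717, 628 and 660 CPM in nac103-11 and 158, 176 and 160 CPM in WT (log2 fold change 2.02). The beta-glucosidase gene DIN2 had 1500, 1450 and 1420 CPM in nac103-11 and 585, 553 and 582 CPM in WT (1.35). The raffinose synthase gene DIN10 had 5510, 5660 and 5550 CPM in nac103-11 and 3310, 3130 and 3330 CPM in WT (0.77). In each of these genes the lowest nac103-11 library was above the highest WT library. In the gun1 mutant on control medium, SEN1, DIN2 and DIN10 had log2 fold changes of 1.08, 1.41 and 0.483 over the same WT libraries. In NAC103-OX the values were −0.996, −0.768 and −1.04.

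Breakdown of branched-chain amino acids was represented at several consecutive steps. BCAT-2, which removes the amino group, had 603, 585 and 609 CPM in nac103-11 and 176, 181 and 172 CPM in WT (log2 fold change 1.77). BCE2, a subunit of the branched-chain keto acid dehydrogenase, had 1490, 1490 and 1510 CPM in nac103-11 and 444, 407 and 442 CPM in WT (1.79). The further steps IVD, MCCA and MCCB rose by 1.00, 1.39 and 1.13 on the log2 scale, and ETFQO, which passes the electrons to the respiratory chain, by 1.15. The lysine breakdown gene AT4G33150 (LKR/SDH) rose by 1.28. Proline dehydrogenase ERD5 rose by 0.53, with 2120, 2090 and 2010 CPM in nac103-11 and 1570, 1210 and 1530 CPM in WT. The hexose importer STP1 rose by 1.13, and 4 class II trehalose phosphate synthase genes, TPS8 to TPS11, rose by 0.52 to 1.23. The 2 members that were not called, EXL2 and EXL4, had log2 fold changes of −0.07 and −0.18. Both were called lower with raw library sizes, and EXL4 was also called lower without WT replicate 2 (−0.32). On spectinomycin 25 of the 27 genes were higher in nac103-11 than in WT, with a median of 0.78.

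Genes of the low-oxygen response, in which plants lacking oxygen switch to fermentation, formed another group of large rises. ADH1, the alcohol dehydrogenase that ends ethanol fermentation, had 503, 503 and 506 CPM in nac103-11 and 61.8, 40.2 and 63.9 CPM in WT (log2 fold change 3.19, SE 0.107, adjusted p = 1.66e-14). The sucrose synthase gene SUS4 had 96.2, 95.6 and 91.4 CPM in nac103-11 and 9.89, 7.97 and 11.8 CPM in WT (3.27), and its relative SUS1 had 306, 315 and 301 CPM in nac103-11 and 84.6, 96.5 and 94.7 CPM in WT (1.74). The aquaporin-family gene NIP2;1, a lactic acid channel, had 29.0, 28.7 and 27.3 CPM in nac103-11 and 4.46, 2.18 and 4.70 CPM in WT (2.93). These enzymes and channels act in carbon supply to fermentation and in export of its products. WT replicate 2 was the lowest of the WT libraries for ADH1, SUS4 and NIP2;1, and all WT libraries remained far below the nac103-11 libraries.

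Of 21 low-oxygen genes tested, 19 rose and 1 fell, 13 of the rises at 2-fold or more, with a median log2 fold change of 1.69. Without WT replicate 2 the counts were 18 and 2, with a median of 1.55. The pyruvate decarboxylase gene AT4G33070 (PDC1) rose by 1.79 and its relative PDC2 by 0.16, a call that was lost in 4 of the alternative settings. The hemoglobin gene HB1 rose by 1.69. Regulators of the response were among the rises too: LBD41 had 155, 165 and 160 CPM in nac103-11 and 42.9, 47.8 and 45 CPM in WT (1.82), and HRA1 (AT3G10040), which attenuates the response, had 41.6, 39.9 and 38.5 CPM in nac103-11 and 7.33, 8.14 and 8.91 CPM in WT (2.30). The plant cysteine oxidase genes AT5G15120 (PCO1) and AT5G39890 (PCO2), whose products sense oxygen by marking ERF-VII factors for degradation, rose by 1.18 and 2.24. ERF73, one of these factors, rose by 1.02. ERF71, another, was low and not called, with 1.90, 1.62 and 1.62 CPM in nac103-11 and 3.17, 1.38 and 2.99 CPM in WT (−0.53). Without WT replicate 2 it was called lower, at −0.85, and was the second fall. NAC102 was the gene that fell, by 0.16. On spectinomycin 16 of the 21 were higher in nac103-11 than in WT and none was lower, with a median of 0.96. In the other genotypes on control medium, ADH1 averaged 96.6 CPM in gun1-101 and 19.7 CPM in NAC103-OX, and SUS4 averaged 25.9 CPM in gun1-101 and 3.65 CPM in NAC103-OX.

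**Figure D3:**
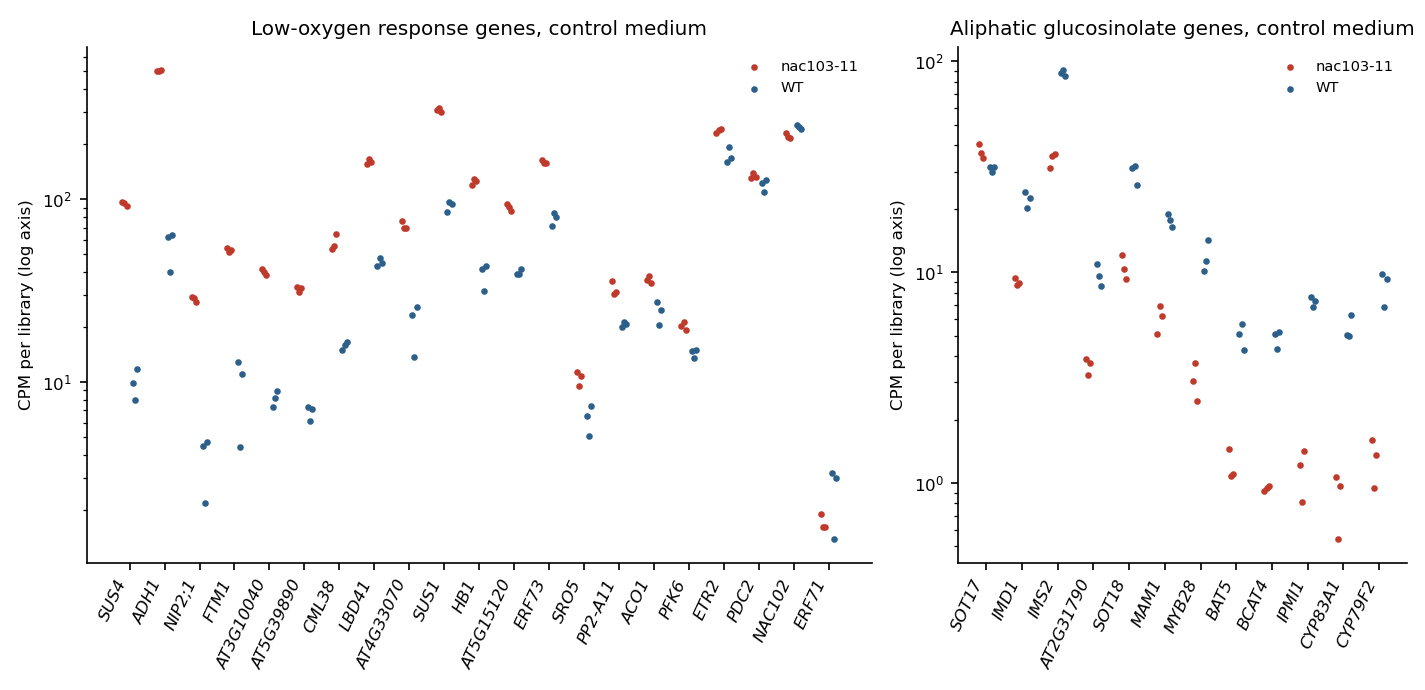
CPM per library on a log axis for the 21 low-oxygen genes (left) and the 12 aliphatic glucosinolate genes (right), with nac103-11 in red left of WT in blue for each gene. The nac103-11 points lie above the WT points in 19 low-oxygen genes, from SUS4 to PDC2, and below them in 11 of the 12 aliphatic glucosinolate genes, SOT17 being the exception.

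The list with the lowest median was the synthesis of aliphatic glucosinolates, the methionine-derived defence compounds of the Brassicaceae. Of 12 genes tested, 11 fell at 2-fold or more and 1 rose, with a median log2 fold change of −1.73 and a summed level of 107 to 111 CPM in nac103-11 and 237 to 247 CPM in WT. MYB28, the transcription factor that drives the pathway, had 3.05, 3.72 and 2.46 CPM in nac103-11 and 10.1, 11.3 and 14.2 CPM in WT (log2 fold change −1.94, SE 0.150, adjusted p = 2.15e-14). The falls ran through the pathway in order. For chain elongation, BCAT4 fell by 2.34, MAM1 by 1.53, IMS2 by 1.36, IPMI1 by 2.64 and IMD1 by 1.3 on the log2 scale, and the plastid importer of the chain-elongation precursor BAT5 fell by 2.06. IMS2, the member with the highest level by TPM in WT, had 31.1, 35.4 and 36.3 CPM in nac103-11 and 88.0, 90.5 and 85.4 CPM in WT. For the core structure, CYP79F2 had 1.6, 0.947 and 1.36 CPM in nac103-11 and 9.77, 6.82 and 9.33 CPM in WT (−2.73), CYP83A1 fell by 2.65, the glycosyltransferase gene AT2G31790 by 1.43 and the sulfotransferase gene SOT18 by 1.5. SOT17, another sulfotransferase gene, rose by 0.27 and was not called with raw library sizes. CYP79F2 has the near-identical neighbour CYP79F1, which had at most 2 counts in a library, and how reads are shared between copies is set by the authors' counting. MYB29 and MYB76, the other activators of the pathway, had no count in the 6 libraries. On spectinomycin 9 of the 12 were lower in nac103-11 and 1 was higher, with a median of −0.49, and 10 of the 12 were called in the difference between media. On control medium CYP79F2, IPMI1, CYP83A1, IMS2 and MAM1 were also below the same WT libraries in both other genotypes. In the gun1 mutant their log2 fold changes were −1.46, −1.55, −0.793, −1.19 and −1.12. In NAC103-OX they were −2.2, −2.24, −2.35, −1.16 and −1.71. SOT18 was not called in either, at 0.0202 and −0.0676. The falls of the genes other than SOT18 were therefore not limited to nac103-11.

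Genes for the other branch, tryptophan-derived indole glucosinolates and camalexin, moved mostly upward by smaller amounts. Of 21 genes tested, 14 rose and 3 fell, with a median log2 fold change of 0.41. MYB51 and MYB122, activators of the indole branch, rose: MYB51 had 337, 345 and 319 CPM in nac103-11 and 193, 177 and 191 CPM in WT (0.84), and MYB122 had 42.2, 45.3 and 44.9 CPM in nac103-11 and 16.5, 20.9 and 15.5 CPM in WT (1.31). The third activator, MYB34, fell by 0.68. CYP83B1, which commits indole precursors to this branch, had 993, 1010 and 924 CPM in nac103-11 and 680, 619 and 658 CPM in WT (0.58). CYP82C2, which hydroxylates an indole cyanogenic defence compound, had 26.6, 29.6 and 29.3 CPM in nac103-11 and 5.19, 7.86 and 5.2 CPM in WT (2.21). CYP79B2, which makes the shared precursor, rose by 0.41, while its relative CYP79B3 fell by 0.31. PAD3, the last step to camalexin, was not called (−0.14), with 8.91, 10.5 and 10.1 CPM in nac103-11 and 14, 7.86 and 10.8 CPM in WT. On spectinomycin 19 of the 21 genes were higher in nac103-11 and the median was 1.27. In the gun1 mutant on control medium, MYB51, MYB122 and CYP82C2 had log2 fold changes of 2.02, 2.63 and 6.13 over the same WT libraries. In NAC103-OX the values were −2.64, −3.46 and −5.1. The rises of MYB51, MYB122 and CYP82C2 were therefore not limited to nac103-11.

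Stress-induced transcription factor genes rose almost throughout. Of 14 tested, 13 rose and none fell, with a median log2 fold change of 0.78 and a summed level of 1570 to 1650 CPM in nac103-11 and 855 to 923 CPM in WT. ERF105 (AT5G51190) rose by 1.73, with 59.9 to 67.3 CPM in nac103-11 and at most 22.1 CPM in WT. MYB15, an activator of phenylpropanoid and cold-response genes, had 156, 146 and 148 CPM in nac103-11 and 56.4, 65.7 and 63.3 CPM in WT (1.28). ERF6 rose by 1.03 and ERF104 by 1.2, and the zinc-finger repressor genes STZ and RHL41 by 0.86 and 0.78. WRKY33, WRKY40 and WRKY53, regulators of pathogen responses, rose by 0.71, 0.94 and 0.74. WRKY46, with 1.22, 1.28 and 0.842 CPM in nac103-11 and 0.855, 0.860 and 0.713 CPM in WT, was not called. The same counts, 13 higher and 0 lower, were found on spectinomycin, with a median of 1.12. In the gun1 mutant on control medium, ERF105, MYB15 and ERF6 had log2 fold changes of 3.02, 2.07 and 1.98 over the same WT libraries. In NAC103-OX the values were −3.26, −5.4 and −3.11. The rises of ERF105, MYB15 and ERF6 were therefore not limited to nac103-11.

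The ethylene, jasmonate, salicylate and cytokinin lists held more rises than falls. Their counts are to be read against 23.2% higher and 20.14% lower over all genes. Of 18 ethylene and jasmonate genes, 11 rose and 1 fell (median log2 fold change 0.47). The ethylene synthesis genes ACS2, ACS6 and ACS7 rose by 1.49, 0.97 and 0.81, and ACS6 had 76.0, 75.1 and 79.7 CPM in nac103-11 and 38.8, 41.8 and 37.3 CPM in WT. The jasmonate synthesis genes LOX3 and LOX4 rose by 1.84 and 1.15, and the jasmonate repressor genes JAZ1, JAZ6 and TIFY7 rose by 0.50, 0.44 and 0.96. The single fall was VSP2 (−1.48), which rests on WT replicate 2: it had 1.6, 1.56 and 1.55 CPM in nac103-11 and 1.89, 8.26 and 2.64 CPM in WT, and without that replicate the list held 13 rises and 0 falls. Of 6 salicylate defence genes tested, 5 rose (median 0.42), among them the receptor gene NPR1 (0.47), EDS1 (0.40) and SARD1, which had 3.35, 3.31 and 3.43 CPM in nac103-11 and 1.47, 0.803 and 1.71 CPM in WT (1.37). The salicylate markers PR1, PR2 and PR5 had at most 1 count in any of the 6 libraries. Of 8 type-A response regulator genes, which are induced by cytokinin and dampen its signal, 5 rose and none fell (median 0.42). ARR7 had 8.07, 8.18 and 8.74 CPM in nac103-11 and 3.3, 3.78 and 3.06 CPM in WT (1.29), and RR5 and ARR4 rose by 0.83 and 0.59.

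Auxin and abscisic acid lists went the other way. Their counts and those of heat shock genes are to be read against 20.14% lower and 23.2% higher over all genes. Of 16 auxin genes, 10 fell and 1 rose (median −0.23). The efflux carriers PIN7, PIN3 and EIR1 fell by 0.49, 0.23 and 0.19 and the influx carriers AUX1 and LAX3 by 0.16 and 0.26. LBD16 and LBD29, auxin-induced regulators of lateral root initiation, fell by 0.53 and 1.13. The gene that rose was WES1, which conjugates auxin to amino acids, with 145, 158 and 145 CPM in nac103-11 and 107, 79.3 and 109 CPM in WT (0.60). Of 11 abscisic acid and cold genes, 5 fell and 1 rose (median −0.37), with ERD10, KIN1 and KIN2 lower by 0.65, 1.06 and 1.02. Of 9 heat shock genes, 7 fell and none rose (median −0.48). HSP70 had 99.6, 98.9 and 102 CPM in nac103-11 and 153, 156 and 150 CPM in WT (−0.61), and the co-chaperone gene ROF1 fell by 0.48.

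**Figure D4:**
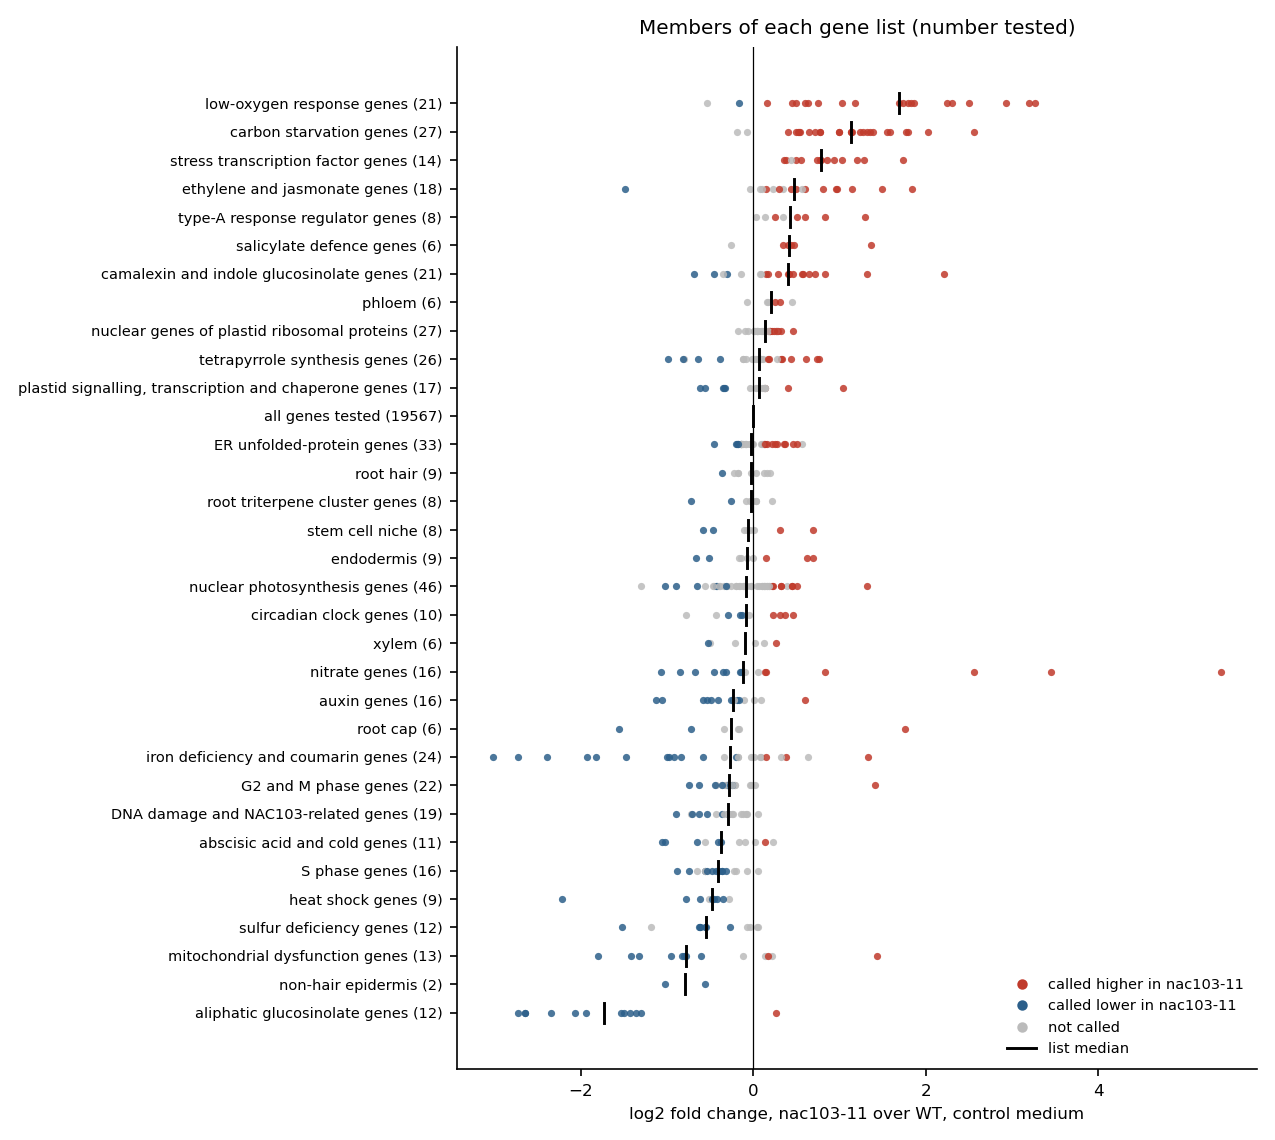
Log2 fold change of nac103-11 over WT on control medium for each tested member of the gene lists, 1 point per gene, ordered by list median, which is drawn as a black bar. Red points were called higher, blue points lower and grey points not called; of the lists drawn, which leave out the line-variable methylated loci, low-oxygen and carbon starvation genes lie at the top, aliphatic glucosinolate genes at the bottom, and the row of all 19567 genes tested shows its median only.

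Of 24 iron deficiency and coumarin genes tested, 12 fell and 3 rose, where 20.14% of all genes fell and 23.2% rose. The median log2 fold change of this list was −0.27. The median was −0.46 without nac103-11 replicate 2 and −0.45 without nac103-11 replicate 1, with 13 and 12 falls. The transcription factor genes BHLH100, bHLH38, bHLH39 and BHLH101, induced together when iron is short, fell by 3.01, 2.39, 1.00 and 0.97. bHLH39 had 30.7, 27.9 and 30.6 CPM in nac103-11 and 62.2, 50.7 and 66.1 CPM in WT. Their partner FRU, the master regulator of iron uptake, fell by 0.92. The iron transporter IRT1 had 0.838, 0.879 and 0.971 CPM in nac103-11 and 2.63, 4.01 and 2.85 CPM in WT (−1.82). The chelator synthesis gene NAS4 fell by 2.72 and the phloem transporter OPT3 by 0.84, while FRO2, the iron reductase, was near 1 CPM in both genotypes and not called (−0.17). The ferritin gene FER1, which stores iron, had 84.8, 86.3 and 87.3 CPM in nac103-11 and 31.0, 37.9 and 33.8 CPM in WT (1.33), whereas its relative FER3 fell by 0.58. AT3G13610 (F6'H1), the entry enzyme of coumarin synthesis, rose by 0.15. Of 12 sulfur deficiency genes, 7 fell and none rose (median −0.55), and SULTR1;2, the main sulfate importer of roots, had 568, 555 and 532 CPM in nac103-11 and 860, 858 and 835 CPM in WT (−0.63). The sulfate reduction genes APR2 and APR3 fell by 0.61 and 0.54, and APR1 was not called (0.05).

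Markers of mitochondrial dysfunction, which rise when respiration is blocked, were mostly lower in nac103-11. Of 13 tested, 8 fell and 2 rose, with a median log2 fold change of −0.78, and without WT replicate 2 the counts were 9 and 3 with a median of −0.86. The bypass enzymes of the respiratory chain AOX1A and NDB2 fell by 0.81 and 0.82, and NDB2 had 35.5, 38.5 and 34.4 CPM in nac103-11 and 69.2, 54.1 and 69.1 CPM in WT. CYP81D8 had 26.8, 24.9 and 26.0 CPM in nac103-11 and 71.8, 52.9 and 70.5 CPM in WT (−1.33), and AT2G21640, annotated as a marker of oxidative stress, had 1.98, 1.83 and 1.17 CPM in nac103-11 and 6.78, 5.05 and 5.34 CPM in WT (−1.8). UGT74E2 and SOT12 also fell, by 1.41 and 0.95. WT replicate 2 was the lowest WT library for each of these named genes. The regulator NAC13 fell by 0.60 and NAC017, which activates the response from the ER membrane, rose by 0.17. DIC2, a mitochondrial carrier, rose, with 95.8, 82.8 and 80.5 CPM in nac103-11 and 31.7, 35.8 and 27.8 CPM in WT (1.43). On control medium DIC2 had a log2 fold change over the same WT libraries of 2.76 in the gun1 mutant and −3.7 in NAC103-OX. CYP81D8 and NDB2, which fell in nac103-11, were also lower in NAC103-OX, at −4.42 and −1.48. In the gun1 mutant neither was called (−0.149 and −0.0454). On spectinomycin the list held 4 genes higher and 2 lower, and 8 of the 13 were called in the difference between media.

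Promoters of 3 of these genes and of ADH1, from the low-oxygen list, are shown. NAC factors that carry the mitochondrial signal are known to bind a common element. It was searched here on both strands as CTTG, any 5 bases, CA, any base and G. The search covered the 250 bases before each gene's start in TAIR10.1 (RefSeq annotation). Capitals mark the matches, each sequence runs 5′ to 3′ on the strand of its gene, and a match is a description and not a shown binding site. ADH1 holds 2 matches, at chr1:28975005-28975254 on the plus strand, 219 and 113 bases before the start, counted to the first base of the match. CYP81D8 holds 1 at chr4:17571744-17571993 on the minus strand, AT2G21640 holds 1 at chr2:9254128-9254377 on the plus strand and NDB2 holds 1 at chr4:2572177-2572426 on the plus strand.
ADH1: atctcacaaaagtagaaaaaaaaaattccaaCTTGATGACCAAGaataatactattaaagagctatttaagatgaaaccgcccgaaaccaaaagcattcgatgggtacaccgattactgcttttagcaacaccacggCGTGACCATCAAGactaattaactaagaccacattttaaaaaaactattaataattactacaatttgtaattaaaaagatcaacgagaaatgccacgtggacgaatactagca
CYP81D8: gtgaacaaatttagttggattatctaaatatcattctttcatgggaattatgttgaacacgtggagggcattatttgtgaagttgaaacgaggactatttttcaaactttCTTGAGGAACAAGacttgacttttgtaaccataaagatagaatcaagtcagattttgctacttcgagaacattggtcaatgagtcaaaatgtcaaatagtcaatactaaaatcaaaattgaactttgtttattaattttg
AT2G21640: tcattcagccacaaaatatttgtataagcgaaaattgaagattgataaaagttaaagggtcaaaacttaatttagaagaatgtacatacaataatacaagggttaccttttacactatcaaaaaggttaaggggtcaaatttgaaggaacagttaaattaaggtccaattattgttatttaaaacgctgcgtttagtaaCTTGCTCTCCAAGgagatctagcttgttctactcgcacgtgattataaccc
NDB2: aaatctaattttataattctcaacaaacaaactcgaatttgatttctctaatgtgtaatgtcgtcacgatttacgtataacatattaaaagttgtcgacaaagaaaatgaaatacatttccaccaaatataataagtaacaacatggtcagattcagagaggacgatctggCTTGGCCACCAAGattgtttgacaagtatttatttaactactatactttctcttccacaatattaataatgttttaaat
The first of these genes rose and the other 3 fell in nac103-11. Over the genes tested with a promoter, the motif was in 17 of 377 genes at least 2-fold lower in nac103-11 (4.51%), in 8 of 499 at least 2-fold higher (1.60%) and in 269 of all 19440 (1.38%). Of the 13 mitochondrial dysfunction genes, 5 hold it, and 4 of those fell. The 5 include AT5G51440 and NAC017, whose sequences are not shown, and NAC017 is the one that rose. CYP81D8 and AT2G21640 are among both the 17 and the 5, so these counts overlap. The element carries the name of this gene group, so its presence in the list is no independent evidence. An element of the ER stress response, TCATCG (UPRE-III), is not taken here as a NAC103 binding site. It was in 6.90% of the genes at least 2-fold lower, 6.41% of those at least 2-fold higher and 6.46% of all promoters. A palindrome of the kind bound by SOG1, CTT and AAG with any 7 bases between them, was in 12.2%, 11.2% and 9.03% of the same sets, and the G-box CACGTG in 7.16%, 8.22% and 7.24%. The first and the third motif can match at the same place, as both open with CTT.

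The lists for pathways in which NAC103 has been placed held no call at 2-fold or more. Of 33 genes of the ER unfolded protein response tested, 10 rose and 7 fell, with a median log2 fold change of −0.021. Over all genes tested 23.2% rose and 20.14% fell. With raw library sizes 5 were higher and 18 lower, so the direction of this list depends on the scaling. The chaperone genes BIP1 and BIP2 had log2 fold changes of −0.14 and −0.19, and BIP2 had 235, 242 and 250 CPM in nac103-11 and 264, 282 and 284 CPM in WT. BIP3, which is induced most by ER stress, was below 1 CPM in every library and not called (0.57, SE 0.544). Calreticulin CRT1b had 86.0, 91.3 and 90.5 CPM in nac103-11 and 125, 119 and 125 CPM in WT (−0.46). The sensor and regulator genes IRE1A, BZIP60 and NAC089 rose by 0.37, 0.26 and 0.51, and IRE1A had 177, 175 and 168 CPM in nac103-11 and 136, 137 and 131 CPM in WT. BZIP28 and IRE1-1 were not called.

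Of 19 DNA damage genes tested, 6 fell and none rose, none at 2-fold (median log2 fold change −0.29), where 20.14% of all genes fell. Without nac103-11 replicate 2 the falls were 3. TSO2, a ribonucleotide reductase subunit, fell by 0.89, the mitotic cyclin gene CYCB1;1 had 1.6, 1.62 and 1.68 CPM in nac103-11 and 2.81, 2.35 and 2.92 CPM in WT (−0.71), and PARP1 and PARP2 fell by 0.36 and 0.54. SOG1 was not called (0.05), nor was BRCA1 (−0.43). The kinase gene WEE1, at 1.52, 1.28 and 1.1 CPM in nac103-11 and 1.59, 1.61 and 1.71 CPM in WT, was not called. With raw library sizes 13 of the 19 were lower. Genes of the cell cycle moved in the same direction by similar amounts. Of 16 S phase genes, 10 fell and none rose (median −0.41), with PCNA1 lower by 0.88, CDT1A by 0.75 and MCM6 by 0.56. Of 22 G2 and M phase genes, 8 fell and 1 rose (median −0.29), against 20.14% lower over all genes. Without nac103-11 replicate 2, with DESeq2 and in the fit of the compared groups alone 5 fell, and with raw library sizes 17 were lower and 1 higher. CYCA2;3 fell by 0.74, and the cytokinesis syntaxin SYP111 had 9.82, 8.59 and 9.39 CPM in nac103-11 and 13.6, 12.2 and 11.9 CPM in WT (−0.44). The mitotic kinases CDKB2;1 and CDKB2;2 were not called, at −0.03 and 0.02. AUR2, an Aurora kinase gene, was the exception, with 21, 22.2 and 21.9 CPM in nac103-11 and 8.55, 7.68 and 8.27 CPM in WT (1.41), while its relative AUR1 was not called (−0.21).

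Plastid lists moved by small amounts on control medium. GUN1 had 168, 164 and 158 CPM in nac103-11 and 150, 150 and 144 CPM in WT, a log2 fold change of 0.14 (adjusted p = 0.0113) that was not called under 4 of the alternative settings. NAC082, the relative of NAC103 that responds to ribosomal stress, was not called (−0.07, adjusted p = 0.294). Of 26 tetrapyrrole synthesis genes, 8 rose and 4 fell (median 0.072), shares near the 23.2% and 20.14% over all genes. The falls were 2 without WT replicate 2, without nac103-11 replicate 1 or without nac103-11 replicate 3. HEMA1, the first committed enzyme, had 87.3, 85.5 and 83.1 CPM in nac103-11 and 47.7, 54.3 and 48.5 CPM in WT (0.76), and the heme oxygenase TED4 had 127, 134 and 138 CPM in nac103-11 and 78.5, 79.5 and 80.8 CPM in WT (0.74). PORB and GUN4, of the chlorophyll branch, fell by 0.64 and 0.99. Of 27 nuclear genes of plastid ribosomal proteins, 10 rose and none fell, none by more than 0.46 on the log2 scale (median 0.14), and with raw library sizes 1 was higher and 2 lower. Of 17 plastid signalling, transcription and chaperone genes, 3 rose and 5 fell, to be read against 23.2% and 20.14% over all genes. Among those called were the chaperone genes CLPC1 (0.40) and CR88 (−0.62). Without WT replicate 2 the counts were 5 and 4.

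Photosynthesis genes in the nucleus gave no direction that held without WT replicate 2. Of 46 tested, 8 rose and 6 fell (median log2 fold change −0.085), where 23.2% of all genes rose and 20.14% fell. The summed level was 1190 to 1220 CPM in nac103-11 and 965 to 1550 CPM in WT. Without WT replicate 2 the counts were 18 higher and 1 lower (median 0.31), without WT replicate 1 they were 4 and 11, and without WT replicate 3 they were 5 and 11. Without nac103-11 replicate 1 they were 5 and 1, and without nac103-11 replicate 3 they were 6 and 2. CAB1, a light-harvesting protein gene, had 33.4, 33.0 and 38.1 CPM in nac103-11 and 40.6, 130 and 39.3 CPM in WT, so the call of −1.02 rests on 1 library, and reads of its near-identical copies CAB2 and CAB3 are divided by the authors' counting. PSBX (0.45) and PSAL (0.51) rose with no overlap between libraries.

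The largest change on this list was PSAN, a photosystem I subunit gene that lies close to NAC103. PSAN had 46.8, 42.8 and 42.7 CPM in nac103-11 and 17, 18.9 and 16.8 CPM in WT (log2 fold change 1.32, SE 0.0738, adjusted p = 5.63e-19), and 0.34 on spectinomycin. The rise of PSAN was not limited to nac103-11. On control medium its log2 fold change over the same WT libraries was 0.503 in the gun1 mutant and 0.501 in NAC103-OX. In the TAIR10.1 order PSAN is the second tested gene on 1 side of NAC103. The gene between them, ERS, was not called (−0.02), and the neighbour on the other side, PI-4KBETA1, had 0.13 (adjusted p = 0.0183), a call lost under 4 alternative settings. Among the 25 tested genes on each side of NAC103, 11 rose and 11 fell, which is 44.0% of 50 against 43.3% of all genes. Beside PSAN, AT5G64110, a peroxidase-family gene, and AT5G64190 were called at 2-fold or more, with log2 fold changes of 1.03 and 1.8. On the 5 chromosomes 42.5% to 44.5% of the genes tested were called. The strand setting of the counts is not given, so reads of overlapping genes cannot be told apart.

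Markers of root cell types were detected for each type listed. The counts in all cell type lists and in the clock and triterpene lists are small. They are to be read against 43.3% called over all genes, 23.2% higher and 20.14% lower. The quiescent centre gene WOX5 had 1.14, 0.879 and 0.777 CPM in nac103-11 and 0.611, 1.15 and 0.998 CPM in WT and was not called, nor were the stem cell regulators PLT1, PLT2 and SCR. Of 8 stem cell niche genes 2 rose and 2 fell: BBM rose by 0.69 and AIL6 by 0.31, and SHR fell by 0.46 and CR4 by 0.58. Of 6 root cap genes 1 rose and 2 fell. The fall of FEZ was not called with DESeq2, with no filter or with any 1 WT replicate left out. It was also lost without nac103-11 replicate 2 or replicate 3. AT1G65570, a pectin lyase-like gene of the root cap, had 12.4, 10.5 and 11.3 CPM in nac103-11 and 3.97, 2.24 and 3.99 CPM in WT (1.76), while CEL5, at 1.22, 1.42 and 1.42 CPM in nac103-11 and 5.43, 1.78 and 5.06 CPM in WT, fell by 1.56, and SMB, a NAC regulator of cap maturation, was not called. Of 9 endodermis genes 3 rose and 2 fell, and without WT replicate 2 these counts were 2 and 4. MYB36, the regulator of Casparian strip formation, had 54.7, 52.3 and 53.5 CPM in nac103-11 and 37.2, 27.1 and 35.3 CPM in WT (0.69), and the receptor gene GSO1 rose by 0.62, whereas the strip protein gene CASP1 was not called and CASP4 and CASP5 fell by 0.52 and 0.66.

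Of 9 root hair genes 1 fell, SHV2 by 0.36, and none rose (median −0.022), with a summed level of 493 to 533 CPM in nac103-11 and 392 to 622 CPM in WT. The SHV2 call was lost without WT replicate 1 and in the fit of the compared groups alone. The cell wall protein gene PRP3 had 170, 189 and 180 CPM in nac103-11 and 228, 149 and 235 CPM in WT, so WT replicate 2 lay below and the other WT libraries above the nac103-11 libraries. Without that library 3 of the 9 were lower and none higher (median −0.25). Both non-hair epidermis genes fell, GL2 by 0.56 and MYB66 by 1.02. Of 6 xylem genes 1 rose and 1 fell, and of 6 phloem genes 2 rose, the sucrose transporter SUC2 by 0.25 and APL by 0.32, and 4 rose without WT replicate 2. With raw library sizes 0 phloem genes were called, and without WT replicate 3 the APL call was lost. Of 10 circadian clock genes 4 rose and 3 fell, and of 8 triterpene cluster genes 2 fell, THAS1 by 0.72 and MRN1 by 0.26, the last of these lost under 5 alternative settings. The part of these cell types in the lists above was not tested.

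A part of the nac103-11 differences recurred on spectinomycin, in libraries that share none with the control comparison. There 5211 genes (26.6%) were called between nac103-11 and WT, 3030 higher (15.5%) and 2181 lower (11.1%). With the same sign on both media 3951 genes (20.19%) were called, 2420 higher (12.4%) and 1531 lower (7.82%), which are 46.6% of the control calls and 75.8% of the spectinomycin calls, and 75 were called with opposite signs. Of the 886 genes at 2-fold or more on control medium, 577 were called with the same sign on spectinomycin and 830 (93.7%) had a fitted value of the same sign, against 74.8% of all genes tested. The fitted change was smaller on spectinomycin in 711 of the 886, which had been chosen for their size on control medium.

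Genes with large changes on both media included, beside QQS, NIP2;1, SEN1, ADH1 and SUS4, the dirigent protein gene DIR5 and FTM1. DIR5 had 47.4, 46.9 and 43.4 CPM in nac103-11 and 8.55, 7.11 and 8.98 CPM in WT on control medium (log2 fold change 2.49), and 2.36 on spectinomycin. FTM1, a stearoyl-ACP desaturase gene, had 54.2, 51.6 and 52.6 CPM in nac103-11 and 12.8, 4.42 and 11.1 CPM in WT (2.5), and 1.88 on spectinomycin. Falls on both media included the sodium transporter HKT1, with 2.28, 1.62 and 1.75 CPM in nac103-11 and 4.52, 5.85 and 5.42 CPM in WT (−1.49), and −1.85 on spectinomycin. The arabinogalactan protein gene AGP30 had 4.42, 4.67 and 3.56 CPM in nac103-11 and 20.5, 16.5 and 21.4 CPM in WT (−2.20), and −1.47 on spectinomycin. OCT1, an organic cation transporter gene, GDU4 and the beta-glucosidase gene BGLU24 fell by 3.25, 2.85 and 1.55 on control medium and by 1.60, 1.55 and 1.52 on spectinomycin.

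**Figure D5:**
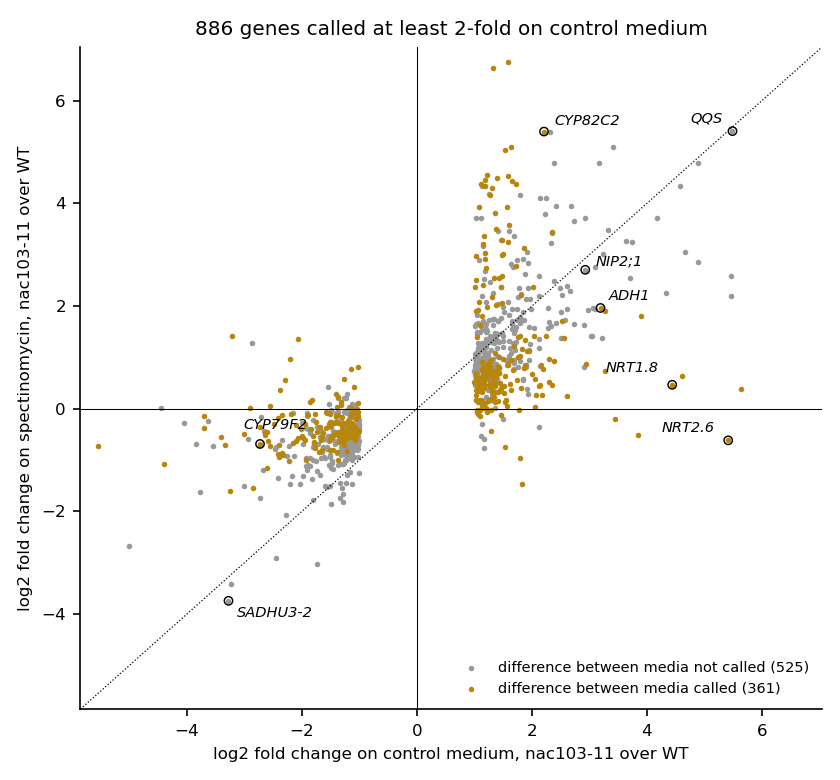
Log2 fold change of nac103-11 over WT on spectinomycin (vertical axis) against that on control medium (horizontal axis) for the 886 genes called at 2-fold or more on control medium, with the line of equal values dotted. The 361 ochre points were also called in the difference between media; QQS and SADHU3-2 lie near the line, NRT1.8 and NRT2.6 far below it and CYP82C2 far above it.

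The size of the nac103-11 difference itself differed between media for 2300 genes (11.8% of those tested), and for 361 of the 886. For some genes the difference on spectinomycin was far larger. The peroxidase gene PER4 had 494, 524 and 517 CPM in nac103-11 and 263, 320 and 272 CPM in WT on control medium (log2 fold change 0.84), and 107, 100 and 102 CPM in nac103-11 and 0.821, 1.37 and 1.61 CPM in WT on spectinomycin (6.31). CYP81F2, which modifies indole glucosinolates, had 611, 609 and 567 CPM in nac103-11 and 386, 462 and 363 CPM in WT on control medium (0.56), and 4.79 on spectinomycin. The glutathione transferase gene GSTU12 had log2 fold changes of 0.36 on control medium and 4.24 on spectinomycin. In all 3 genes the WT level was far lower on spectinomycin than on control medium and the nac103-11 level was lower by less.

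The remaining genes of the 12 largest rises were lower in abundance. PIRL8, a leucine-rich repeat gene, rose by 3.27, the transcription factor genes WRKY59 and TDR1 by 3.17 and 3.06, PP2-B14, an F-box protein gene, by 3.09 and PGAZAT, a polygalacturonase gene of abscission zones, by 2.90, each with a nac103-11 mean between 1 and 4 CPM. The remaining largest falls were UMAMIT10, an amino acid transporter-family gene (−2.61), the brassinosteroid glucosyltransferase gene DOGT1 (−2.55) and the root expansin gene EXPA17, which had 1.07, 0.947 and 1.17 CPM in nac103-11 and 6.90, 4.87 and 6.13 CPM in WT (−2.48). Of these 3, none was at 2-fold on spectinomycin, where EXPA17 had 9.52, 8.98 and 8.73 CPM in nac103-11 and 11.0, 10.0 and 12.4 CPM in WT.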

How the data were processed

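RNA from root tips was sequenced in 24 libraries, 3 for each of 4 genotypes on 2 media. The authors deposited 1 table with an expected count per gene and library, made with RSEM 1.3.1 per the submitters' processing notes, in which 98.3% of the values are whole. The TPM values in the same table are length-scaled levels as deposited and served only to compare levels between genes. Another 48 per-sample columns, of FPKM and normalised counts, were not used. The aligner, the genome build, the annotation and the strand setting are not given in the sources used here.

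Expected counts were rounded and fitted in 1 model of all 24 libraries with edgeR 4.0.16 in R 4.3.3, by the quasi-likelihood test with TMM normalisation. Low genes were removed by filterByExpr (minimum count 10, minimum total 15). P-values were adjusted by Benjamini-Hochberg over the 19567 genes tested, and a gene was called at an adjusted p under 0.05. CPM is on TMM-scaled library sizes. Totals of 13837483 to 17059084 counts per library set the precision. A log2 fold change is nac103-11 over WT. Its SE was derived from the test, as the absolute log2 fold change divided by the square root of the F statistic.

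Gene names come from the TAIR10.1 reference, which matched 24424 of 24497 identifiers, and promoters were read from it by gene identifier. Time on spectinomycin is 16 h by the labels' treatment protocol but 24 h by the design text of the series.

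Genes were named by a rule: NAC103, GUN1, NAC082 and the neighbours of NAC103; the 12 largest rises and 12 largest falls on control medium, of called genes that have a symbol, average 1 CPM or more in either genotype and have libraries that do not overlap; the 8 largest in each direction called on both media; from each list the called members of smallest p, at most 3; and the 5 largest differences between media. Further list members named in the text were chosen after their values were seen. The comparison, the members and the gene lists were chosen with earlier results of these data known. Alternatives were DESeq2 1.42.0, RLE size factors, no filter, only the groups compared, a replicate block, each replicate left out and, chosen after seeing the data, raw library sizes. The edgeR fit was tested on simulated data.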

Additional observations from a re-analysis of the deposited data

Results flagged for a closer look

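For 28 of the 122 genes named by the rule, the nac103-11 difference itself differed between spectinomycin and control medium by at least 2-fold and was called in edgeR's test of that difference. Another 35 were called at under 2-fold. Over all genes tested 11.8% were called. Many of the 122 were named for large differences on control medium, and 5 for this difference between media. Their share is therefore no independent evidence. Values below are the log2 fold change of nac103-11 over WT on spectinomycin minus that on control medium. The value was most negative for nitrate transporter genes, with −6.03 for NRT2.6, −3.97 for NRT1.8 and −3.65 for NRT2:1. Among low-oxygen and carbon starvation genes it was −1.37 for SUS4, −1.23 for ADH1 and −1.18 for ASN1. PIRL8 had −2.54, AUR2 −1.27 and NAC103 itself −2.41.

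Positive values were found for genes that rose on both media, with 5.47 for PER4, 4.23 for CYP81F2, 3.87 for GSTU12, 3.19 for CYP82C2, 2.90 for MYB15, 1.12 for DIC2 and 1.05 for AT5G51190. They were also found for genes that fell on control medium and had a smaller or no fall on spectinomycin. Aliphatic glucosinolate genes had 2.16 for IPMI1, 2.13 for CYP83A1, 2.04 for CYP79F2 and 1.24 for MAM1. The others were DOGT1 at 2.61, EXPA17 at 2.18, UMAMIT10 at 2.15, OCT1 at 1.65, CEL5 at 1.48, CYP81D8 at 1.45, bHLH38 at 1.45 and GDU4 at 1.3. For CEL5 and CYP81D8 the control difference involves WT replicate 2, which was the lowest WT library for both.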

How the results depend on the processing

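Total counts of calls in the 4 comparisons and at 2-fold or more stayed within 1.5 times their reported values under every alternative run, but with raw library sizes the split on control medium moved to 2658 higher and 7105 lower, against 4541 and 3940. Counts in short lists moved further, as given beside them. NAC103 on control medium was called under none, at −0.52 to −0.15 on the log2 scale. Calls on control medium numbered 7113 to 9763 and those at 2-fold or more 752 to 1000. Leaving out 1 replicate at a time gave 7427 to 8619 calls on control medium, 4258 to 4548 on spectinomycin, 1916 to 3284 for the difference between media, 3353 to 4148 on both media and 888 to 1000 at 2-fold or more. The highest of these for the difference between media, 3284, was without WT replicate 2. Without that library 7539 of the 8481 control calls remained with the same sign, and DESeq2 kept 7442. Of 164 named genes checked, 147 kept their side of the threshold and direction in every alternative. ERS had values of −0.067 to 0.029 when 1 replicate was left out, and PI-4KBETA1 had −0.0092 with raw library sizes. Replicate numbers did not pair the libraries: deviations of same-numbered libraries correlated at −0.0126, −0.0159 and 0.0244 on control medium, and a replicate block gave 8505 calls there, 5268 on spectinomycin, 2347 for the difference between media and 885 at 2-fold or more. Depth limits genes near 1 CPM, among them NAC103 with 27 counts in nac103-11 and 37 in WT.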
